A study of Mus musculus with 15 samples.

Results

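The transcripts of 10 genes listed as Gq and calcium effectors of muscarinic receptors were followed in mouse testis. They were taken as the rows of the deposited expression table whose Entrez Gene ID belongs to Gnaq, Gna11, Plcb1, Plcb3, Plcb4, Plcz1, Itpr1, Itpr2, Itpr3 or Prkca. The rows were thus matched by name, but the genes were chosen with earlier results of these data known. All 10 were found among the 23510 rows. RNA had been sequenced from 15 testis libraries of ICR mice, 3 in each of 5 groups. Con is labelled only as control, and its age and any injection are not given in the sources used here. MNC is the vector control, in which the testes received lentivirus with the shRNA shNC. M1, M3 and M5 received a mixture of 3 lentiviral shRNAs against the muscarinic acetylcholine receptor M1, M3 or M5, encoded by Chrm1, Chrm3 and Chrm5. Per the study's methods, mice of the injected groups were 5 weeks old at injection and their testes were collected 10 days later. The virus was injected into the testes, and which cells took it up was not examined here. The RNA came from the whole testis, so it was not restricted to a cell type. The labels do not say that the libraries of a group came from separate animals, so the p-values measure the spread between these libraries.

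The muscarinic receptors M1, M3 and M5 couple to the G proteins Gq and G11. An active Gq alpha subunit switches on phospholipase C beta, which splits a membrane phosphoinositide into IP3 and diacylglycerol. IP3 opens receptor channels in the endoplasmic reticulum and releases calcium, and diacylglycerol together with calcium activates the conventional protein kinases C. The list also holds a further phospholipase of the testis, PLC zeta, which is not one of the phospholipases C beta that Gq switches on. PLC zeta is made in spermatids and carried by the sperm into the egg, where it starts calcium oscillations.

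Of these 10 genes, 9 were abundant enough for the test, and Plcz1 and Itpr3 were the ones that passed it in a comparison of groups. Both were higher in MNC than in Con, Plcz1 by 1.52 times and Itpr3 by 1.95 times. That comparison called 20.4% of all genes tested, so 2 of 9 was near the share over all genes. The call of Itpr3 was close to the threshold and was kept in 1 of 13 alternative fits. That of Plcz1 was lost without Con replicate 1 and without Con replicate 2. Itpr3 was lower in M5 than in M1, at 0.517 of its level, in a comparison that called 6.75% of all genes tested. Transcripts of the Gq alpha subunits, of phospholipases C beta and of Itpr1 and Itpr2 were called in none of the 6 comparisons of pairs of groups.

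The targeted receptors were examined first. Chrm1 lay between 0.06 and 0.17 FPKM in the 15 libraries, Chrm3 between 0.01 and 0.11 and Chrm5 between 0.19 and 0.43, where FPKM is the number of fragments mapped to a gene, corrected for transcript length and for the library total. At these levels no decrease of Chrm1 in M1 (exact permutation test, two-sided, p = 0.9), of Chrm3 in M3 (exact permutation p = 0.3) or of Chrm5 in M5 (exact permutation p = 0.5) was detectable against MNC. Mean FPKM was 0.113 in M1 against 0.107 in MNC for Chrm1, and 0.077 in M3 against 0.037 in MNC for Chrm3. For Chrm5 it was 0.32 in M5 against 0.363 in MNC. The smallest p that 3 against 3 libraries can give is 0.1. The receptor transcripts therefore do not check the group labels. The study reported less M5 protein in testes given shM5, by immunofluorescence and Western blotting, and protein was not examined here.

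All libraries held testis transcripts, with markers of spermatocytes, spermatids, Sertoli cells and Leydig cells well above 0. Several libraries stood apart. M5 replicate 3 had the highest value of the 15 libraries in 26.5% of the 14514 genes tested, with a summed FPKM of 689 for 8 Sertoli cell markers and 3168 for 7 Leydig cell markers, against 374 and 424, and 1769 and 1521, in the other M5 libraries. The 3 M3 libraries and MNC replicates 2 and 3 correlated across genes at least as well with another group as with their own, and for M3 replicate 3 that group was M5 (mean r of 0.9781 with M5 and 0.978 with M3). The sum of 6 epididymis markers was between 11.6 and 33.9 FPKM in Con and at most 0.41 in MNC. It was 21.2, 5.53 and 0.9 FPKM in M3, at most 0.64 in M1 and at most 0.72 in M5.

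Level in the testis differed widely among the 10 genes. FPKM is scaled by transcript length, so levels of different genes can be set side by side. Plcz1 (Entrez ID 114875, GRCm38 chr6:139987396-140041488) was by far the most abundant, with a mean of 140 FPKM over the 15 libraries, above 97.1% of all rows. Itpr3 followed with a mean of 14.4 FPKM, Gna11 with 11.4 and Plcb4 with 8.75. Itpr1 (4.56), Plcb3 (4.01), Gnaq (2.33), Itpr2 (1.76) and Plcb1 (1.07) were lower in mean FPKM. Prkca had a mean of 0.696 FPKM, below the mean of 1 required for a test across genes, so 9 of the 10 genes were tested. The plot of FPKM by library shows each gene in each group.

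**Figure D1:**
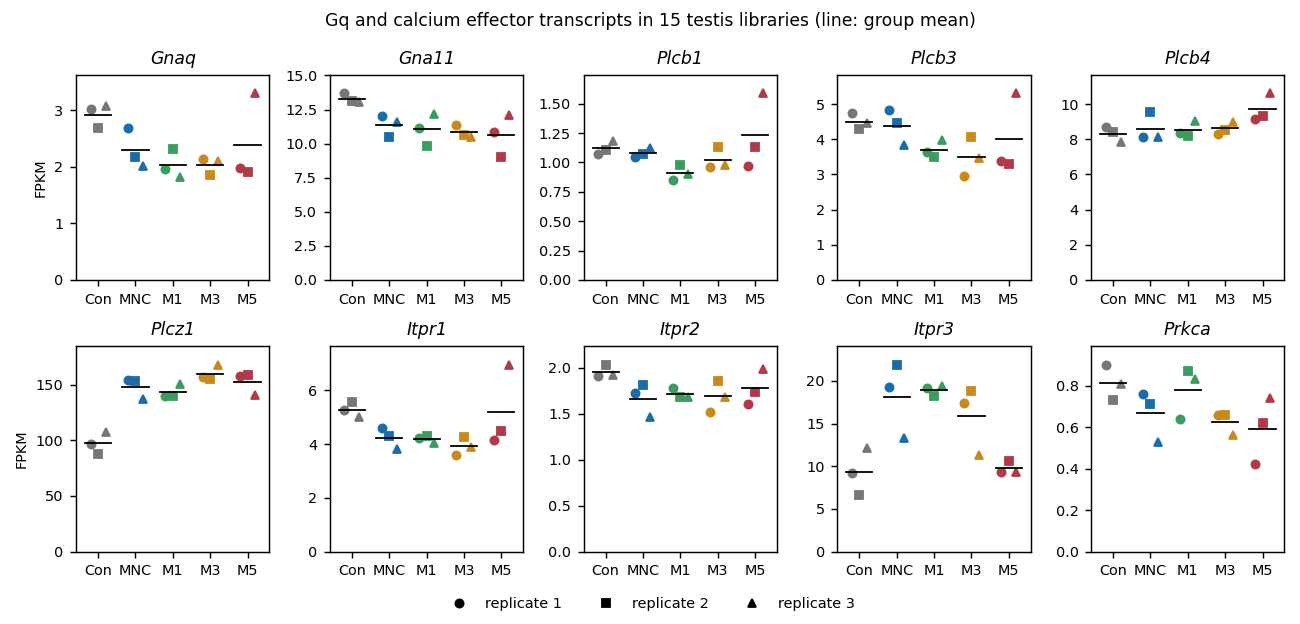
FPKM (vertical axes, linear, starting at 0) of the 10 genes in the 15 testis libraries, by group; each point is 1 library, its shape gives the replicate number and the line is the group mean of 3. Plcz1 lies between 87.9 and 108 FPKM in Con and above 137 in all other libraries, Itpr3 is low in Con and M5, and M5 replicate 3 (triangle) lies above the other M5 libraries in 8 of the 10 panels.

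Gnaq (Entrez ID 14682, chr19:16132684-16388520) and Gna11 (14672, chr10:81528724-81545162) encode the alpha subunits of Gq and G11. Gna11 made up the larger part of their joint transcripts in all 15 libraries. It was at 13.7, 13.2 and 13.0 FPKM in Con, at 12.0, 10.5 and 11.6 in MNC, at 11.2, 9.84 and 12.2 in M1, at 11.4, 10.6 and 10.5 in M3 and at 10.9, 8.99 and 12.1 in M5. The 3 Con libraries lay above the other 12. Between MNC and Con the difference of the mean log2(FPKM + 1) was -0.21 (SE 0.067), and it did not pass the test (limma adjusted p = 0.067). Groups of 3 that do not overlap were common in this comparison, with MNC below Con for 31.5% of the genes tested. Gnaq was between 2.68 and 3.07 FPKM in Con, and between 1.81 and 2.68 in all injected libraries but M5 replicate 3, where it was at 3.30. MNC and Con met at 2.68, and the difference in Gnaq was not called (adjusted p = 0.115).

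The phospholipases C beta are the enzymes that Gq switches on. Plcb4 (18798, chr2:135658603-136014602) held most of the summed FPKM of the 4 genes of this family, Plcb2 included, in all groups, with a mean share of between 50.5% in MNC and 57.1% in M5. Its level was 9.18, 9.34 and 10.6 FPKM in M5, 8.33, 8.16 and 9.01 in M1 and 8.3, 8.54 and 9.0 in M3. The M5 libraries lay above those of M1 and of M3, with log2 differences of 0.17 (SE 0.086) and 0.15 (SE 0.092), and neither difference was called (adjusted p = 0.269 and 0.435). The same kind of separation, M5 above, was seen in 18.8% and 14.4% of the genes tested. MNC replicate 2, at 9.53 FPKM, lay within the M5 range, and M5 against MNC was not called either (adjusted p = 0.383).

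Plcb3 (18797, chr19:6953708-6975006) was at 4.49 ± 0.24 FPKM (SD, n = 3) in Con and 4.38 ± 0.49 in MNC. Its means were 3.70 ± 0.25 in M1, 3.5 ± 0.56 in M3 and 4.0 ± 1.1 in M5. Each knockdown group overlapped with MNC, and the adjusted p was 0.819, 0.527 and 0.71 in that order. Plcb1 (18795, chr2:134786164-135475258) was at 0.85, 0.98 and 0.90 FPKM in M1 and at 1.05, 1.07 and 1.12 in MNC. The M1 libraries lay below those of MNC, by a log2 difference of -0.12 (SE 0.076, adjusted p = 0.833), and 6.97% of the genes tested had M1 wholly below MNC. These levels are near the limit for testing, where the added 1 FPKM understates a change.

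Plcz1 encodes PLC zeta. It was at 96.8, 87.9 and 108 FPKM in Con and at 154, 153 and 137 FPKM in MNC. It was at 140, 139 and 150 FPKM in M1, at 157, 155 and 168 in M3 and at 158, 158 and 141 in M5. All 12 libraries of injected testes lay above all 3 of Con. Such a separation was common between MNC and Con, which did not overlap, in either direction, for 46.5% of all genes tested. The 4 injected groups overlapped with each other except that M3 lay above all of MNC and of M1.

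Between MNC and Con, Plcz1 rose from 97.5 ± 9.9 to 148 ± 9.7 FPKM (SD, n = 3 each), a log2 difference of 0.60 (SE 0.088, limma adjusted p = 0.0175). It was 1 of 2 called among the 9 genes tested, both higher in MNC. Of all genes tested 20.4% were called in this comparison, and 8.03% were called higher in MNC. The call was lost without Con replicate 1 (adjusted p = 0.0866) and without Con replicate 2 (adjusted p = 0.0518), with log2 differences of 0.60 and 0.53. M3 lay above MNC by 0.11 on the log2 scale (SE 0.069, adjusted p = 0.575), a separation that 6.49% of genes showed. No knockdown group was called against MNC for Plcz1.

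Markers of spermatids moved with this difference. The summed FPKM of 8 round spermatid markers was between 1197 and 1271 in Con and between 1550 and 1612 in MNC, and that of 8 elongating spermatid markers was between 11414 and 22092 in Con and between 23322 and 29577 in MNC. All 16 were higher in MNC on average, 5 of the round and 3 of the elongating spermatid markers were called, and none was at 0 in either group. The spermatocyte markers went the other way, with 5 of 8 called lower in MNC, and 1 of 8 Sertoli cell markers, 2 of 5 of peritubular myoid cells and smooth muscle and 1 of 5 of red blood cells were also called lower. The part of these cells in the result for Plcz1 was not tested. In whole testis, fewer cells of a type and less RNA per cell cannot be told apart.

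The 3 IP3 receptors, the calcium channels opened by IP3, did not share a pattern. Itpr3 (16440, chr17:27057002-27122223) was at 9.16, 6.63 and 12.2 FPKM in Con and at 19.2, 21.9 and 13.4 in MNC. It was at 19.2, 18.2 and 19.3 FPKM in M1, at 17.4, 18.8 and 11.3 in M3 and at 9.38, 10.6 and 9.34 in M5. The M5 libraries lay below every library of MNC, M1 and M3 and within the range of Con. M3 replicate 3 and MNC replicate 3 were the low libraries of their groups.

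Ordered by mean, Itpr3 was at 18.9 ± 0.59 FPKM in M1, 18.2 ± 4.4 in MNC, 15.8 ± 4.0 in M3, 9.79 ± 0.74 in M5 and 9.32 ± 2.8 in Con (SD, n = 3 each). M1, MNC and M3 overlapped, as did M5 and Con. The ratio of the highest to the lowest group mean was 2.03, larger than in 91.8% of the genes tested, and for Plcz1 it was 1.64, larger than in 82.9%.

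Relative to M1, Itpr3 in M5 fell by 0.89 (log2 scale, SE 0.074, limma adjusted p = 0.00548). It was the 1 gene called of the 9 tested. Of all genes tested 6.75% were called between M5 and M1, and 3.52% were called lower in M5. The call held in 12 of 13 alternative fits, among them all 6 that left out 1 library, and was lost in the other (adjusted p = 0.0628). In M5 against MNC the difference was -0.80 (SE 0.18), which just missed the threshold (adjusted p = 0.0507), and no gene of the 10 was called in that comparison, where 5.65% of all genes were. By the unadjusted p of limma, 1 of the 9 genes passed 0.05, again Itpr3, against 24.9% of all genes. It was called in M5 against MNC without MNC replicate 3 (log2 difference of -1.0, adjusted p = 0.0429) and with all 5 groups in one fit (adjusted p = 0.0263). In M5 against M3 the difference was -0.61 (SE 0.18, adjusted p = 0.338), and without M3 replicate 3 it was -0.83 (adjusted p = 0.0334). M5 was wholly below MNC for 15.5% of all genes and wholly below M3 for 8.52%, and M5 and M1 did not overlap, in either direction, for 33.7%.

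From Con to MNC, Itpr3 rose by 0.90 (log2 scale, SE 0.25, limma adjusted p = 0.0487), and MNC lay wholly above Con. These groups did not overlap, in either direction, for 46.5% of all genes. The call was lost in 12 of 13 alternative fits, among them all 6 that left out 1 library (adjusted p from 0.0518 without Con replicate 3 to 0.134 without Con replicate 1), and it was kept with all 5 groups in one fit (adjusted p = 0.0123).

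**Figure D2:**
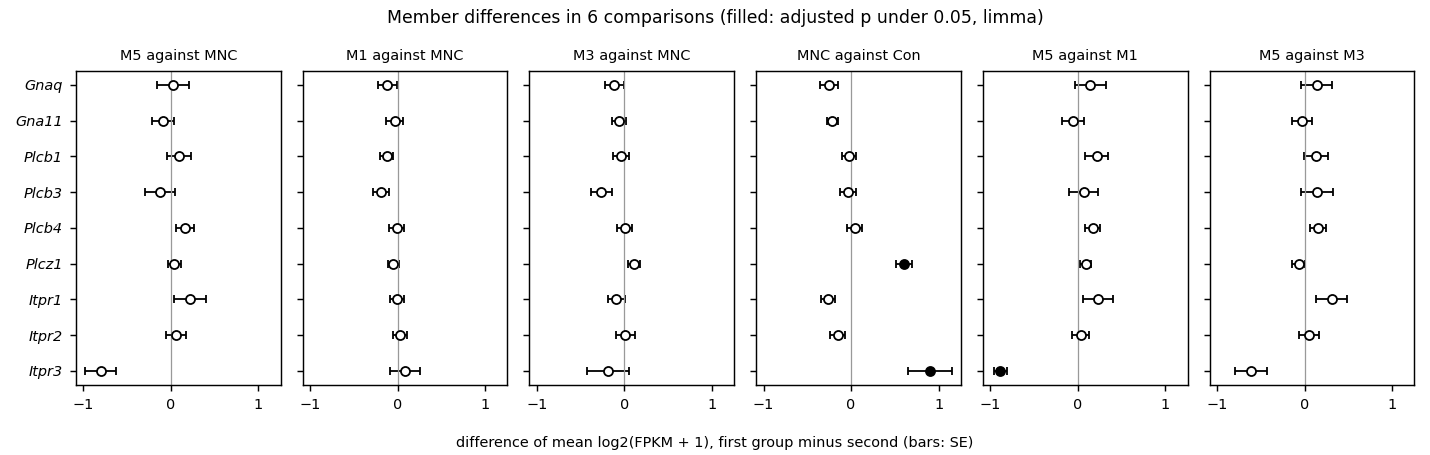
Differences of mean log2(FPKM + 1) for the 9 genes tested (rows) in 6 comparisons (panels), first group minus second; bars are the standard error from limma and filled points have an adjusted p under 0.05. The 3 filled points are Plcz1 (0.60) and Itpr3 (0.90) in MNC against Con and Itpr3 (-0.89) in M5 against M1.

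Some markers of spermatids differed between these groups too. The summed FPKM of the round spermatid markers was lower in each library of Con (1197 to 1271) and M5 (1402 to 1511) than in any of MNC (1550 to 1612), M1 (1572 to 1643) and M3 (1542 to 1715). The groups with the lowest mean Itpr3, Con and M5, were thus also lowest in these markers. The elongating spermatid marker Odf1 was at 695 ± 159 FPKM in Con, 938 ± 91 in M5, 1329 ± 63 in MNC and 1407 ± 44 in M1 (SD, n = 3 each). The sum of all 8 elongating spermatid markers was also low in Con, at 16723 ± 5339 FPKM, but was at 27659 ± 4566 in M5, 27186 ± 3378 in MNC and 28874 ± 950 in M1, and these 3 groups overlapped. Of the 16 markers, Acr and Odf1 were called lower in M5 than in MNC and none was called higher. Of all genes tested, 2.89% were called lower and 2.76% higher. By mean difference, 5 of the round and 4 of the elongating spermatid markers were lower in M5 than in MNC, and 3 and 4 were higher. Against M1, Acr, Acrv1, Odf1 and Tnp2 were called lower in M5 and Catsper3 was called higher, where 3.52% and 3.23% of all genes tested were. The counts by mean difference were the same as against MNC. Of the 8 spermatocyte markers Hormad1 and Sycp1 were called higher in M5 in both comparisons. The 5 red blood cell markers summed to between 148 and 491 FPKM in M5, between 21.8 and 35.3 in MNC and between 27.1 and 79.3 in M1, and 3 of the 5 were called higher in M5 than in MNC. The part of these cells in the values of Itpr3 was not tested.

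Itpr1 (16438, chr6:108213083-108551116) was at 5.27, 5.56 and 5.0 FPKM in Con and at 4.61, 4.29 and 3.81 in MNC. MNC lay below Con by a log2 difference of -0.26 (SE 0.084, adjusted p = 0.0705). Itpr2 (16439, chr6:146108299-146502258) was at 1.91, 2.03 and 1.92 FPKM in Con and at 1.72, 1.81 and 1.46 in MNC, a log2 difference of -0.15 (SE 0.086, adjusted p = 0.229). Neither was called, and both had the opposite sign to Itpr3. In M1 and M3, Itpr1 lay between 3.6 and 4.29 FPKM, and in M5 it was at 4.14, 4.5 and 6.95.

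As a share of the summed FPKM of the 3 IP3 receptors, Itpr3 made up 55.5% in Con, 75.0% in MNC, 76.2% in M1, 73.2% in M3 and 58.7% in M5 (group means). The sum itself was 16.5 ± 2.4 FPKM in Con, 24.1 ± 4.9 in MNC, 24.8 ± 0.53 in M1, 21.4 ± 4.1 in M3 and 16.8 ± 1.6 in M5 (SD, n = 3 each). Itpr1 and Itpr2 together took a similar amount in most libraries, and the sum followed Itpr3, as the plot of the 3 receptors shows. These shares are a description and carry no test.

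**Figure D3:**
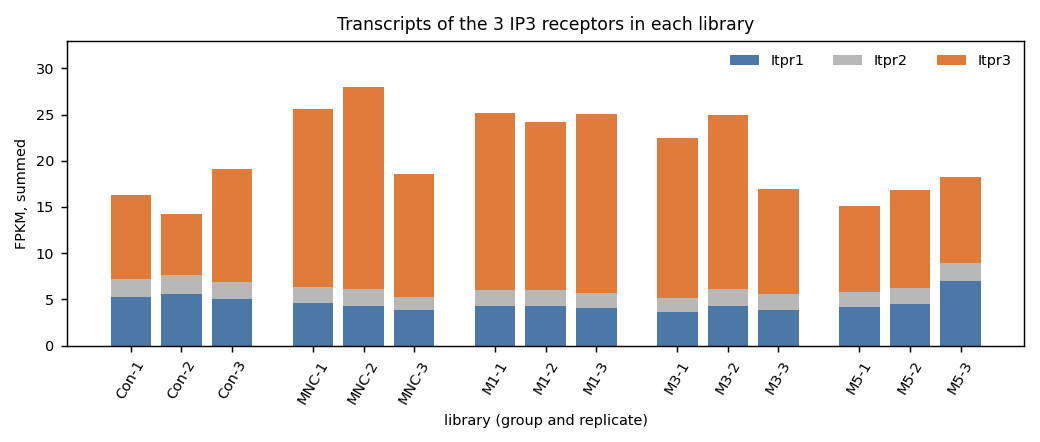
Summed FPKM (vertical axis, linear, starting at 0) of Itpr1, Itpr2 and Itpr3 in each of the 15 libraries, named by group and replicate. The Itpr3 segment is between 9.34 and 10.6 FPKM in the 3 M5 libraries and between 18.2 and 19.3 in the 3 M1 libraries, and the Itpr1 segment is largest, at 6.95, in M5 replicate 3.

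Prkca (18750, chr11:107933387-108343888) encodes protein kinase C alpha, a conventional kinase that needs calcium and diacylglycerol. It was at 0.90, 0.73 and 0.81 FPKM in Con, at 0.76, 0.71 and 0.53 in MNC, at 0.64, 0.87 and 0.83 in M1, at 0.66, 0.66 and 0.56 in M3 and at 0.42, 0.62 and 0.74 in M5. The groups overlapped in each of the 6 comparisons, with exact permutation p between 0.2 and 0.8 (two-sided, n = 3 each).

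M1 against MNC and M3 against MNC gave no call among the 9 genes tested by limma, and none of the 9 had an unadjusted p under 0.05. The lowest adjusted p was 0.819 for M1 and 0.527 for M3, in both cases that of Plcb3. Few genes of any kind were called in these comparisons, with 0.0% of all genes in M1 against MNC and 0.00689% in M3 against MNC, while 5.94% and 9.43% had an unadjusted p under 0.05. M5 against M3 called none of the 9, against 0.0138% of all genes. By the unadjusted p, 1 of the 9, Itpr3, passed 0.05 there, against 14.3% of all genes. All 3 knockdown groups were compared with the same MNC libraries.

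A test over the 5 groups at once called Plcz1 (limma F-test, adjusted p = 0.00141) and Itpr3 (adjusted p = 0.00989) of the 9 genes, with 33.6% of all genes called. The number called changed when M5 replicate 3 was left out. This library held the highest value of the 15 libraries for Gnaq, Plcb1, Plcb3, Plcb4 and Itpr1, so for 5 of the 10 genes. It did so for 26.5% of all genes tested. Its value was 1.71 times the mean of the other M5 libraries for Gnaq, 1.61 times for Itpr1 and 1.59 times for Plcb3, and 0.933 times for Itpr3. Without this library the same test called 6 of the 9 genes, Plcz1, Itpr3, Gnaq, Gna11, Plcb3 and Itpr1, and 40.2% of all genes. Its summed macrophage markers, at 97.7 FPKM against 41.6 and 51.6 in the other M5 libraries, and its Sertoli and Leydig cell markers were raised as well, and their part was not tested.

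The rest of the pathway was covered by 7 lists with 163 genes, of which 114 were tested. In MNC against Con, 6 of the 114 were called higher and 21 lower, where 8.03% and 12.4% of all genes were, with a median log2 difference of -0.10 beside -0.095 over all genes tested. Calcium handling of the endoplasmic reticulum had 2 called higher and 7 lower of 23 tested. Calmodulin, its kinases and calcineurin had 1 higher and 6 lower of 20, and the metabolism of phosphoinositides, IP3 and diacylglycerol had 1 higher and 6 lower of 27. Of the 15 regulators of Gq tested, none was called by limma.

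Prkcd, a protein kinase C that answers to diacylglycerol without calcium, rose from 52.5 ± 11.7 FPKM in Con to 86.5 ± 5.5 in MNC (log2 difference of 0.73, SE 0.16, adjusted p = 0.0304). Calml3, a calmodulin-like protein, rose from 1.30 ± 0.21 to 2.81 ± 0.17 FPKM (0.73, SE 0.098, adjusted p = 0.0172). Itpripl1 rose by 0.37 (SE 0.09, adjusted p = 0.0381). The gene for the endoplasmic reticulum chaperone calnexin, Canx, fell by 0.40 on the log2 scale (SE 0.063, adjusted p = 0.0198). Camk2g, a subunit of calcium/calmodulin-dependent kinase II, fell by 0.36 (SE 0.069, adjusted p = 0.0256), and Calm2, 1 of the calmodulin genes, fell by 0.34 (SE 0.072, adjusted p = 0.0293). All 6 calls were lost without Con replicate 1 (adjusted p from 0.0866 to 0.116) and without Con replicate 2 (adjusted p from 0.0508 to 0.113). Those of Itpripl1, Prkcd, Canx, Camk2g and Calm2 were also lost without MNC replicate 2 (adjusted p from 0.0546 to 0.0935), those of Itpripl1 and Prkcd without MNC replicate 3 (adjusted p of 0.0863 and 0.0728), that of Calm2 without MNC replicate 1 (adjusted p = 0.0536), and those of Itpripl1, Camk2g and Calm2 without Con replicate 3 (adjusted p from 0.0595 to 0.0692). Those of Calm2 and Camk2g were lost after centring on the median (adjusted p of 0.095 and 0.0506), that of Calm2 also with the GC trend removed (adjusted p = 0.112) and that of Itpripl1 without the filter (adjusted p = 0.0566).

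In M5 against MNC, 3 of the 114 genes were called, all higher in M5, where 5.65% of all genes were called and 2.76% were called higher, and the median log2 difference was 0.026 beside 0.025 over all genes tested. Gng10 and Gng5 encode gamma subunits of G proteins. The FPKM of Gng10 was 37.1, 33.3 and 30.5 in M5 and 24.7, 22.7 and 23.6 in MNC, and rose by 0.49 on the log2 scale (SE 0.085, adjusted p = 0.0331). That of Gng5 was 208, 189 and 192 in M5 and 154, 143 and 136 in MNC, and rose by 0.44 (SE 0.068, adjusted p = 0.0262). That of Canx was 56.8, 54.1 and 60.8 in M5 and 44.1, 42.4 and 42.0 in MNC, and rose by 0.41 (SE 0.063, adjusted p = 0.0254). In each of the 3 genes M5 lay wholly above MNC, as it did for 16.6% of all genes tested. The 3 calls were lost without M5 replicate 1 or 2 or MNC replicate 2 or 3 (adjusted p from 0.0828 to 0.123), those of Canx and Gng10 also without MNC replicate 1 (adjusted p of 0.0501 and 0.0595), and all 3 after centring on the median or removal of the trend with GC content.

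M5 against M1 called 3 of the 114 higher and 1 lower in M5, where 3.23% and 3.52% of all genes were. The 3 were again higher in M5, by 0.36 for Gng10, 0.37 for Gng5 and 0.39 for Canx (SE 0.08, 0.053 and 0.059, adjusted p = 0.0488, 0.0181 and 0.0208). Inpp5e, a phosphatase of phosphoinositides, fell by 0.31 (SE 0.053, adjusted p = 0.0268), from 25.2 ± 0.42 FPKM in M1 to 20.2 ± 0.57 in M5. These 4 calls were lost without M5 replicate 2 and without any 1 of the M1 libraries (adjusted p from 0.0546 to 0.173), and all but that of Gng5 also without M5 replicate 1 (adjusted p from 0.0607 to 0.0933). All 4 were lost after centring on the median (adjusted p from 0.0693 to 0.218) and with the GC trend removed (adjusted p from 0.0851 to 0.158), and that of Gng10 also without the filter and after quantile normalization (adjusted p of 0.0693 and 0.0743). No gene of the 114 was called in M5 against M3, in M1 against MNC or in M3 against MNC by limma. The lowest p in M5 against M3 was that of Gng10, at 33.6 ± 3.3 and 16.4 ± 2.4 FPKM (log2 difference of 1.00, SE 0.12, unadjusted p = 8.23e-05, adjusted p = 0.149). Gng10 was called without M3 replicate 3 (adjusted p = 0.047) and with all 5 groups in one fit (adjusted p = 0.000825). The next lowest p was that of Canx (0.28, SE 0.069, adjusted p = 0.338). Against MNC, the lowest in M3 were those of Gng10 (-0.51, SE 0.11) and Tmco1, a calcium channel of the endoplasmic reticulum (-0.31, SE 0.092), both with an adjusted p of 0.518. In M1 they were those of Gnb5, a G protein beta subunit (-0.30, SE 0.097), and Ryr3, a ryanodine receptor (1.14, SE 0.39), both with an adjusted p of 0.819.

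**Figure D4:**
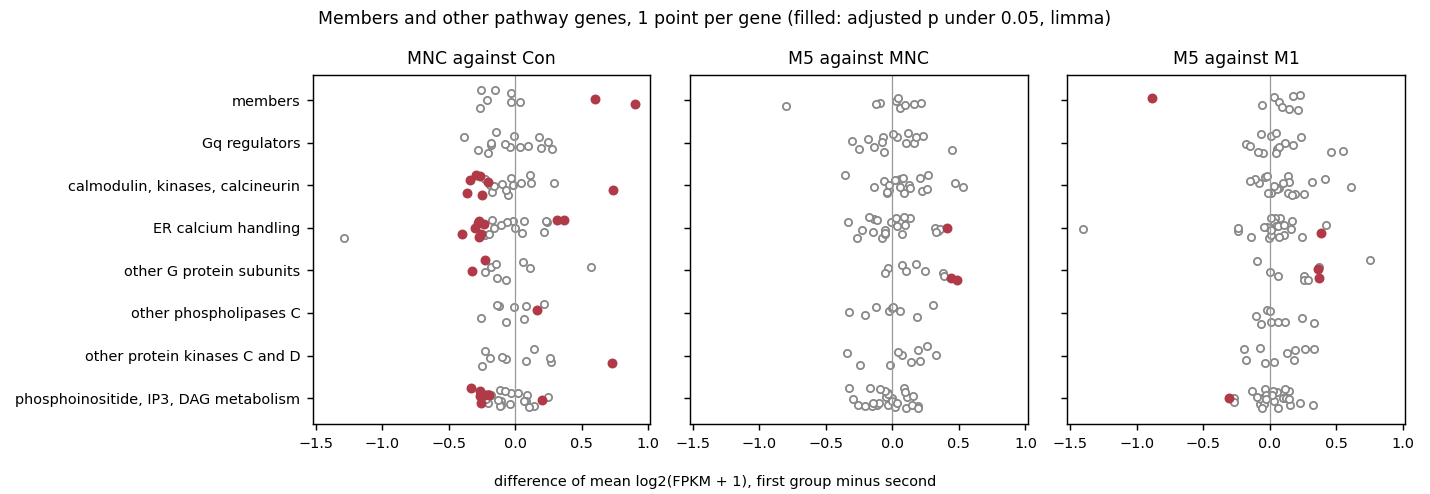
Differences of mean log2(FPKM + 1) for the genes tested of the 10 (members) and of 7 other lists of the pathway (rows), 1 point per gene, in 3 comparisons (panels), first group minus second; the vertical scatter within a row has no meaning. Filled points have an adjusted p under 0.05: 2 of 9 members and 27 of 114 other genes in MNC against Con, none and 3 in M5 against MNC, and 1 and 4 in M5 against M1.

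The genes whose log2(FPKM + 1) over the 15 libraries was most like that of Plcz1 were Spz1 (Pearson r of 0.975), Pmfbp1 (0.967) and Ccdc91 (0.962). Those most like Itpr3 were Tcp11 (0.951), Stard10 (0.939) and Akap1 (0.937). Itpr1 was most like Tnks2 (0.986), Eif4a1 (0.974) and Ralb (0.974), and Plcb3 most like Scap (0.944), Ltbp4 (0.938) and Acacb (0.932). For Gnaq they were Thap11 (0.914), Prmt1 (0.912) and Lyplal1 (0.907), and for Gna11 Taf1c (0.874), Ppp2r3d (0.87) and Eftud2 (0.87). Plcb1 was most like Nfkbie (0.909), Gda (0.907) and Alg14 (0.896), Plcb4 most like Tmeff1 (0.881), Tmsb15b2 (0.869) and Cgnl1 (0.858), and Itpr2 most like Slc35g1 (0.927), Dolk (0.912) and Echdc2 (0.91). These are the highest of many correlations over libraries that share the same groups and cell make-up, and are given as a description.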

How the data were processed

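The authors enriched poly(A) RNA, sequenced it on an Illumina HiSeq instrument and mapped the reads to reference genes with SOAPaligner. They deposited 1 table of FPKM values with 2 decimals. Their methods name RPKM, the columns name FPKM, the submitters' notes name mm10, and the annotation is not given in the sources used here. Depth is unknown. Of 23510 gene IDs, 21143 (89.9%) were named from a RefSeq table of GRCm38.p6, the same build, which also gave the coordinates. The labels of M5 replicate 2 name 2 columns, and it was mapped by its title.

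Values were analysed as log2(FPKM + 1) for 14514 genes, those whose mean FPKM reached 1. limma 3.58.1 (lmFit, eBayes with trend) in R 4.3.3 compared 2 groups at a time, or the 5 groups in an F-test, with Benjamini-Hochberg adjustment over all genes tested and calls under 0.05. The authors' own test needs counts and was not used. Genes under the filter had two-sided exact permutation tests. The fits were tested on simulated data. All 10 genes are named in each comparison. Of other pathway genes, the 3 largest called changes in each direction are named, or the 2 with the lowest p. The genes and lists were chosen with earlier results of these data known. Alternatives were a pseudocount of 0.1, no filter, median centring, quantile normalization, a replicate block, a fit over all 5 groups, Con as the control for the receptors, leaving out each library and, chosen after seeing the data, removal of the GC trend. Tables were handled in Python 3.11.15 with numpy 2.4.6 and pandas 2.3.3.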

Additional observations from a re-analysis of the deposited data

Results flagged for a closer look

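The level of Itpr3 after knockdown of M5 differed from that after knockdown of M1 in a direct comparison of these 2 groups. Against the vector control MNC, Itpr3 was called in neither group (limma adjusted p = 0.0507 for M5 and 0.949 for M1). M5 was lower than M1 by a log2 difference of -0.89 (SE 0.074, limma adjusted p = 0.00548), and the 3 M5 libraries (9.34 to 10.6 FPKM) lay below the 3 M1 libraries (18.2 to 19.3 FPKM). The call was lost in 1 of 13 alternative fits, with an adjusted p of 0.0628. Groups of 3 libraries are too small to be screened for single outlying values.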

How the results depend on the processing

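The depth of the libraries is unknown, so counting error could not be given. The 12 differences printed for the 10 genes kept their sign in all 156 alternative values, with 16 lost and 3 gained calls. In all 12 the groups did not overlap, so leaving out a library or changing the pseudocount could not change the sign. Dropping the filter, the fit over all groups and the replicate block left the difference itself unchanged. Only median centring, quantile normalization and removal of the GC trend could have changed the sign. In the other 42 the groups overlapped, and they gave 546 values, of which 67 changed sign and none was called. The sign counts therefore do not rank these sets by robustness.

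Of the 10 genes, MNC against Con called 2. It called 1 with a pseudocount of 0.1, no filter, median centring, quantile normalization or the GC trend removed, and 0 to 1 without 1 library. M5 against MNC called 0, with 1 when all 5 groups shared a fit and 0 to 1 without 1 library. Without 1 library, M5 against M3 called 0 to 1 and the F-test 2 to 6, beside 0 and 2. Of all genes, M5 against MNC called 820, with 479 without a filter, 182 after centring, 2424 with all 5 groups, 104 with the GC trend removed and 35 to 946 without 1 library. MNC against Con called 2967, with 1900 without a filter, 1869 after centring and 8 to 2497 without 1 library. M5 against M1 called 980, with 252 after centring, 122 with the GC trend removed and 56 to 1690 without 1 library. M5 against M3 called 2, with 6 without a filter, 4 after centring, 6 with the GC trend removed and 0 to 188 without 1 library. M3 against MNC called 1, with 0 with all 5 groups, 2 with the GC trend removed and 0 to 14 without 1 library. M1 against MNC called 0, with 2 at a pseudocount of 0.1, 3 without a filter and 0 to 12 without 1 library. The F-test called 4878, and 2518 to 5835 without 1 library. The share of calls that were higher moved from 39.3% to 77.5% after centring and 68.7% with the GC trend removed in MNC against Con, from 48.8% to 68.3% with the GC trend removed in M5 against MNC, and from 47.9% to 62.3% with it removed in M5 against M1. The cause was not tested.

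The log2 difference of Chrm1 (0.0084) turned to -0.021 with Con as the control and ran from -0.0088 to 0.024 without 1 library. That of Chrm5 (-0.045) turned to 0.13 with Con as the control and ran from -0.12 to 0.011 without 1 library.

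Same-numbered libraries did not deviate together (correlations from -0.399 to 0.177), so the numbers were not taken as pairs. With the replicate number as a block, MNC against Con called 10 genes and 0 of the 10 (adjusted p = 0.0587 for Plcz1 and 0.107 for Itpr3), M5 against M1 called 39 and 0 (adjusted p = 0.0628 for Itpr3), M5 against MNC called 14, and M3 against MNC and M5 against M3 called 0 each. The calls of all pathway genes named were lost as well, with an adjusted p from 0.0587 to 0.0809 in MNC against Con, 0.0801 to 0.0907 in M5 against MNC and 0.0976 to 0.135 in M5 against M1. Not every library correlated best with its own number.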
